A study of Saccharomyces cerevisiae with 91 samples.

Results

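The regions described here are the 672 nucleosome-depleted regions (NDRs), of 6719 listed, that were spanned by the most Micro-C read pairs in wild-type budding yeast. An NDR is a stretch of DNA, usually at a promoter, that carries no stable nucleosome. Micro-C crosslinks cells with formaldehyde, cuts chromatin between nucleosomes with micrococcal nuclease (MNase), ligates neighbouring ends and reads both partners. A pair that spans an NDR joins nucleosomes on its opposite sides. Each column of the deposited count table that held wild type at 30 °C was scaled to a sum of 1000000 NDR-spanning pairs (RPM, reads per that sum), 18 such columns were averaged, and the highest 10% of NDRs were taken. The members were therefore chosen on wild-type values, which are given below as a description and without a test.

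The table held 10 altered groups with replicates, and all cultures grew in YPD. They were BY4741 treated with 1.5 mM diamide for 30 min (2 replicates), BY4741 treated with 3 ug/mL thiolutin for 45 min (2), the deletion strains med1d (3), rtt109d (3) and rnh201d (2), libraries labelled rpd3d (2) and top1d (2), the temperature-sensitive allele ssu72-2 kept at 32 °C (3), and the histone mutants H4d4-14 (2) and H4R23A (2). Groups with 1 column each were the temperature-sensitive alleles rgr1, rsc8-21, scc2-4 and sth1-2 and wild type after 90 min at 37 °C. Wild type at 32 °C, H4Q93E and H4-WT also had 1 column each, as had BY4741 libraries made with no crosslinking or no ligation. BY4741 libraries with MNase at 1X or 0.25X had 1 column for each of 4 size fractions. The strain W303 and H4K16Q had 1 replicate each, in 2 columns that were summed. The rgr1 allele is called rgr1-100 in the titles and rgr1-97 in the strain field. H4-WT is labelled an S288C strain with H3 and H4 on a plasmid, and the labels give no more on the plasmids of the mutants. Wild type at 30 °C was BY4741 with 16 replicates. The labels do not say whether replicates came from separate cultures.

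NDR-spanning pairs numbered 84223 to 951070 in the replicates of the altered groups and 105690 to 1304896 in those of wild type at 30 °C. At the deleted genes, the NDR inside MED1 had 11.9, 18.0 and 22.3 RPM in med1d, against 0 to 99.9 RPM in wild type with a median of 65.3, and the NDR inside RTT109 had 12.4, 18.5 and 17.6 RPM in rtt109d against a wild-type range of 56.8 to 162.8. The NDR at RNH201 had 42.8 and 38.9 RPM in rnh201d, below the wild-type range of 74.8 to 150.1. The NDR at RPD3 had 75.3 and 84.0 RPM in the libraries labelled rpd3d; wild type ran between 48.8 and 130.9 RPM there, so both lay inside it, against the label. The NDR at TOP1 had 24.1 RPM in the first library labelled top1d and 90.4 in the second, against 57.9 to 132.5 in wild type. Both of these groups are called by their labels only. Wild-type replicate 17, at 146987 pairs, had the highest share of pairs on members among wild-type replicates (61.7%). Without it 662 of the 672 members were chosen again.

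The yeast genome repeats several kinds of sequence. The ribosomal DNA (rDNA) is a tandem array of units that encode ribosomal RNA, collapsed to a few units in the reference. Ty elements are retrotransposons scattered over the chromosomes, often beside tRNA genes. Chromosome ends carry subtelomeric repeats, among them Y′ elements with the helicase genes of the YRF1 family. A read from such a repeat fits several places, and the sources used here do not give how the authors assigned such reads. The number of copies of a region, the mapping of its reads and the number of contacts across it cannot be told apart in these counts.

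Members lay mostly at repeats. All 7 NDRs of the rDNA on chromosome XII were members. Within 30 kb beside the rDNA 24 of 34 NDRs were members (70.6%), and within 30 kb of a chromosome end 168 of 501 (33.5%). Of 431 NDRs inside or within 8 kb of an unnamed protein-coding frame of 5.0 to 5.6 kb, 295 were members (68.4%). Each NDR was counted once, at the rDNA first, then beside it, then at an end and then at such a frame. Such frames are called Ty-length here because Ty1 and Ty2 encode a frame of about this size; the gene table used does not call them Ty. There were 40 of them, those beside the rDNA and at ends included, 24 of 5269 bp and 10 of 5314 bp, and 38 held a member inside. The remaining 178 members were among 5746 NDRs elsewhere (3.1%).

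Members also clustered along the chromosome. They formed 126 runs of neighbouring members, of which 60 runs of at least 5 held 549 members (81.7%), and 32 members stood alone. Chromosome I had the highest share of members, 30 of its 100 NDRs (30.0%), and chromosome XI the lowest, 11 of 353 (3.12%). Chromosome XII held 139 members, 108 of them outside the rDNA and the 30 kb beside it.

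The wild-type level fell with distance from a Ty-length frame over about the length of the frame itself. Inside frames, the median NDR had 684 RPM in the library made with no crosslinking and 350 RPM in wild type. At 2 to 4 kb from a frame these medians were 608 and 246 RPM, at 6 to 8 kb 157 and 111 RPM, and at 10 to 15 kb 38.0 and 82.3 RPM. NDRs far from frames and ends had 38.0 RPM with no crosslinking and 84.1 RPM in wild type. Near chromosome ends both libraries peaked 5 to 10 kb inside the end, at 489 RPM with no crosslinking and 257 RPM in wild type, and 73 of 103 NDRs there were members (70.9%). At 15 to 20 kb from an end 9 of 69 NDRs were members (13.0%).

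**Figure D1:**
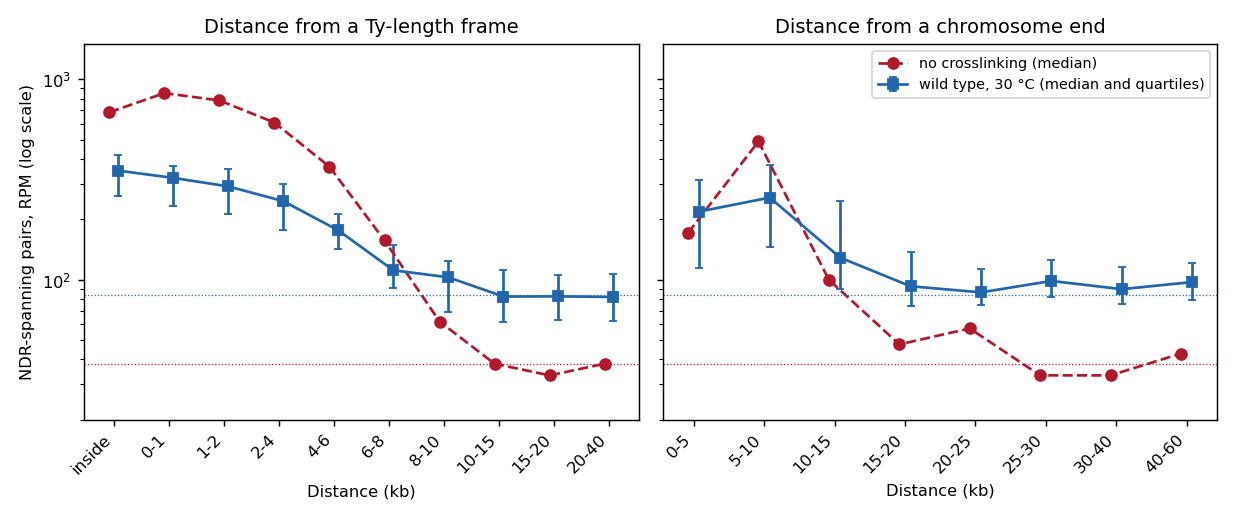
Level of NDRs, in RPM on a log axis, by distance in kb from a Ty-length frame (left) and from a chromosome end (right). Red circles are medians of the 1 library with no crosslinking, blue squares are medians of wild type at 30 °C with quartiles over NDRs, and dotted lines are NDRs far from both. With no crosslinking the NDRs inside Ty-length frames stood at 684 RPM against 38.0 RPM far away, and in wild type at 350 RPM against 84.1 RPM.

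The highest members were those of the rDNA itself. The NDR at chromosome XII position 463647 averaged 48481 RPM in wild type, that at 460158 averaged 48114, that at 454510, at the gene TAR1 on the strand opposite the ribosomal RNA, averaged 43791, and those at 457821 and 466959 averaged 37659 and 27830. The outermost members were lower, with 7293 RPM at 468957 and 1840 RPM at 451306. Levels stepped down over the DNA beside the array rather than stopping at its edge.

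Outside the rDNA, 7 of the 10 highest members lay on its telomeric side, 6 of them among the 4 near-identical ASP3 genes for the cell-wall asparaginase that is made under nitrogen limitation and 1, at YLR162W, beyond them. The NDR inside ASP3-1 (position 469863) had 14855 RPM with no crosslinking, against 3416 to 9510 RPM in the 16 wild-type replicates with a median of 6358. The NDR inside ASP3-2 (473515) had 10907 RPM with no crosslinking, against 2283 to 6349 RPM in wild type with a median of 4182. The library with no crosslinking lay above every wild-type replicate at both. NDRs at 471502, at YLR156C-A (472635) and at 476060 averaged 4709, 4039 and 3574 RPM in wild type, and those at YLR162W (489597) and YLR157C-A (481938) 2499 and 2245 RPM. On the centromeric side the NDR at ACS2, which encodes an acetyl-coenzyme A synthetase, averaged 582 RPM at position 447744.

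The other 3 of these 10 lay near the right end of chromosome VIII. They were the NDR at 553549 and both NDRs at IMD2, which encodes inosine monophosphate dehydrogenase in the guanine nucleotide pathway and has near-identical relatives. The NDR at IMD2 nearer the end, position 554346, had 4575 RPM with no crosslinking, against 926 to 4565 RPM in wild type with a median of 1529. Its wild-type range was wide, and the highest replicate nearly reached the library with no crosslinking. The highest member of those counted at Ty-length frames, 1503 bp from the nearest one and inside YDR261C-D at chromosome IV position 988278, had 3563 RPM with no crosslinking, against 1151 to 2388 RPM in wild type with a median of 1479.

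Members around the threshold differed little. Just inside it were NDRs inside CDC27 (166.3 RPM), inside URA2 (166.1 RPM) and inside TRA1 (165.9 RPM). Just outside it were the NDR at chromosome XIII position 386022 and those inside GLT1 and SCD5, each at 165.5 RPM. The median member had 269 RPM and the median of the other NDRs was 84.7 RPM.

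Members sat less often at promoters than NDRs as a whole. Of the 672 members, 206 (30.7%) lay at a gene start, taken as a start codon within 500 bp on its downstream side or 50 bp on its upstream side, against 53.4% of all NDRs. Inside genes lay 297 members (44.2%), against 27.0% of all NDRs. These shares follow from wild-type levels and are given with no test. By wild-type level, the share of NDRs inside genes was 9.09% in the lowest 10%, 54.0% in the 10% next below the members and 44.2% among the members.

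The 178 remaining members, called away from repeats and ends below, were set apart only by the distances above, and can include repeats that the length rule misses. The highest was the NDR at chromosome XII position 977025, with 998 RPM with no crosslinking and 361 to 760 RPM in wild type. The next, at 162093 inside YAR009C on chromosome I, lay in a Ty1 frame too short for the rule, with 907 RPM with no crosslinking and 395 to 816 RPM in wild type. With no crosslinking both stood above every wild-type replicate. Of the 178, 101 lay inside a gene, whose length was 4401 bp in the median, against 2745 bp for the other NDRs inside genes away from repeats and ends. None of 105 NDRs in genes of up to 1 kb were members. The share was 4.86% of 391 NDRs in genes of 2 to 3 kb, 8.56% of 187 in genes of 4 to 5 kb, 5.13% of 78 in genes of 5 to 6 kb, 20.2% of 84 in genes of 6 to 8 kb and 25.0% of 72 in longer genes. The median over the 10 altered groups, which did not choose the members, ran the same way: 57.8 RPM in genes of up to 1 kb, 89.8 RPM in genes of 2 to 3 kb and 125 RPM in genes over 8 kb. With no crosslinking the same bins held medians of 38.0, 38.0 and 28.5 RPM. That library held 210503 pairs, with a median of 8 pairs at NDRs that are no members, so these medians rest on few pairs.

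REA1, the longest yeast gene at 14733 bp, encodes an ATPase that matures the large ribosomal subunit. It held 9 members among its 12 NDRs, the highest at 215 RPM. TRA1, a subunit of the SAGA and NuA4 acetyltransferase complexes, held 4 of 7, and TOR2, a kinase of growth control, held 3 of 4. HAP1, the heme-responsive activator, held 6 of 6, and SEN1, the helicase that ends transcription of many noncoding RNAs, held 3 of 8. The HAP1 members reached 399 RPM and lay in 1 run of members with YLR256W-A, an unnamed frame of 1323 bp. The member inside that frame had 396 RPM. HAP1 gave 6 of the 16 members in genes of 4 to 5 kb, and whether this frame bears on their level was not tested. Not every long gene held members. Among the 20 longest named genes, 19 held NDRs and 8 held members, and DYN1 (dynein heavy chain), CSF1, IRA1 and FMP27 held none among 7, 11, 6 and 7 NDRs.

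The authors' deposited gene table gave a further readout for these genes from the same pooled wild-type libraries. Its score on the log2 scale sets long against short fragments within a gene. It had a median of 0.32 (quartiles 0.06 and 0.62) over the 52 genes with such a member that the table lists, against 0.00 (quartiles -0.23 and 0.13) over 958 genes with an NDR inside but no member. Among genes over 4 kb the medians were 0.29 over 23 genes and 0.06 over 126. REA1 stood at 1.15 and TRA1 at -0.04. Both readouts come from wild type, so their relation was not tested.

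**Figure D2:**
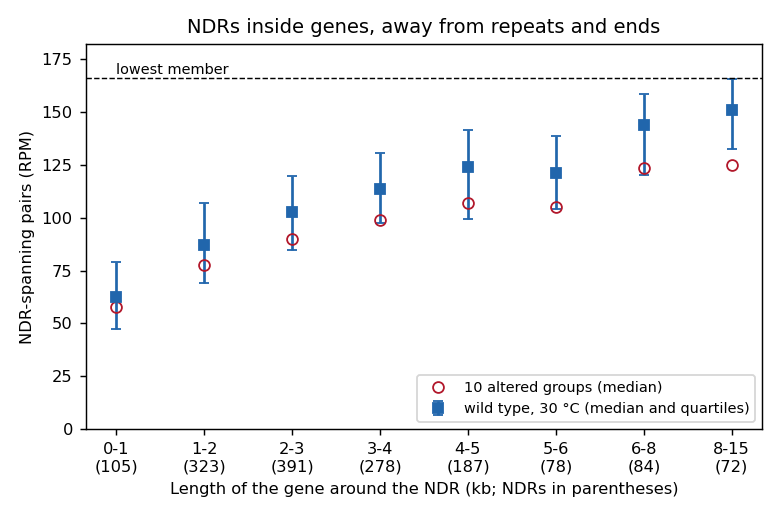
Level of NDRs inside genes away from repeats and ends, in RPM, by length of the gene in kb, with the number of NDRs in parentheses. Open red circles are medians over NDRs of the mean of 10 altered groups, and blue squares are wild-type medians with quartiles over NDRs. Wild-type medians ran between 62.3 RPM in genes of up to 1 kb and 151 RPM in genes over 8 kb, below the lowest member at 165.9 RPM (dashed line).

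The authors also deposited boundaries between chromosomal domains called in wild type, as a joint list and 4 separate lists, each with a strength score. Of the 672 members, 107 (15.9%) lay within 200 bp of a joint-list boundary, against 34.9% of all NDRs. Within 200 bp of no boundary in any of the 4 separate lists lay 443 members (65.9%), against 41.8% of all NDRs. Among NDRs away from repeats and ends, members at a gene start lay near a joint-list boundary in 50.0% of 48 cases and the other NDRs at a gene start in 55.9%. Inside genes these shares were 1.98% of 101 members and 2.40% of the other NDRs. At sites that were neither, they were 3.45% of 29 members and 26.4% of the other NDRs. The strength score of the joint-list boundary within 200 bp was 4.90 in the median for members, against 4.13 for the other NDRs. NDRs were also ordered by wild-type level into classes of equal size. Over these classes the median score rose from 2.82 in the lowest to 5.05 in the class next below the members. The score thus rose with the wild-type level of spanning pairs. Whether a higher score marks fewer contacts across a boundary was not tested.

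**Figure D3:**
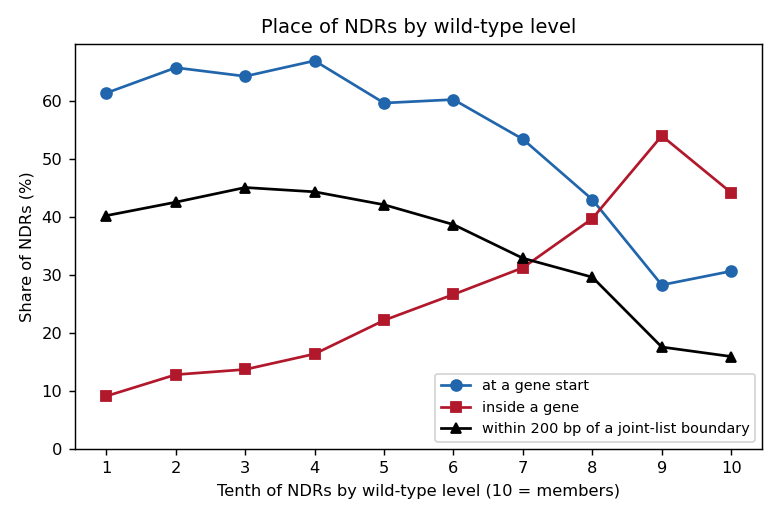
Share of NDRs, in percent, for NDRs ordered by wild-type level into 10 classes of equal size, the members being class 10. Blue circles are NDRs at a gene start, red squares NDRs inside a gene and black triangles NDRs within 200 bp of a joint-list boundary. Among members the shares were 30.7%, 44.2% and 15.9%, against 61.4%, 9.09% and 40.2% in class 1.

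In RPM, the library made with no crosslinking was above the wild-type mean at most members at repeats, but not at most of the rDNA. It put 67.6% of its pairs on members (exact binomial interval 67.4 to 67.8, which covers counting error only), against 34.8 to 61.7% in wild-type replicates with a median of 45.7%. Each NDR was set against its own mean over the 18 wild-type columns. At Ty-length frames 292 of 295 members were higher with no crosslinking than this mean, 195 of them over 2-fold. Beside the rDNA 23 of 24 were higher, and at chromosome ends 121 of 168. In the rDNA 2 of 7 were higher, and the median was 21928 RPM with no crosslinking, against 37602 RPM in wild type. Relative to the median NDR that is no member, the rDNA median was 577-fold with no crosslinking. In wild-type replicates it was 216- to 765-fold, so by this measure the rDNA was not lower. Away from repeats and ends 69 of 178 were higher, 39 of them over 2-fold, and 89 were over 2-fold lower. Among the other NDRs 1001 of 6047 were higher and 3216 were over 2-fold lower. The median of the 178 members away from repeats and ends was 90.3 RPM with no crosslinking, against 192 RPM in wild type.

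The library with no ligation held only 6551 NDR-spanning pairs. It put 48.1% of them on members (exact interval 46.9 to 49.3), and 30.9% of all on members at chromosome ends, against 5.47 to 12.9% in wild type. Of the members 287 had no pair, as had 4776 of the other NDRs. The highest count was 148 pairs at YLL066W-B, a subtelomeric frame on chromosome XII. At this depth a difference at 1 NDR was mostly not detectable.

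The members were mostly in the highest 10% of the other groups, except with no ligation, where 155 of 672 were (23.1%). Of the 672 members, 531 were in the highest 10% with no crosslinking, 585 in W303 and 561 in wild type at 32 °C. In the 10 altered groups this number ran between 570 (ssu72-2) and 605 (the libraries labelled rpd3d). In all 10 altered groups 466 members were in the highest 10%, among them 7 of 7 in the rDNA, 256 of 295 at Ty-length frames, 119 of 168 at chromosome ends and 63 of 178 elsewhere. In none of these groups were 3 members, all elsewhere.

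Members at repeats varied more between altered groups than those elsewhere. The coefficient of variation of the group means (CPM, counts per 1000000 after TMM scaling of the library size) had a median of 87.1% in the rDNA, 39.6% beside it, 27.8% at chromosome ends, 19.2% at Ty-length frames and 16.6% elsewhere, against 16.9% for the other NDRs. The steadiest members were the NDR at chromosome IX position 434387 (5.75%), that at YVH1, a phosphatase gene (6.85%), and that at chromosome XII position 421447 (7.55%). The most variable were 3 rDNA members, at 457821 (92.2%), at TAR1 (88.0%) and at 463647 (88.0%). At 457821 the group means lay between 15096 CPM in rnh201d and 147004 CPM in rtt109d.

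**Figure D4:**
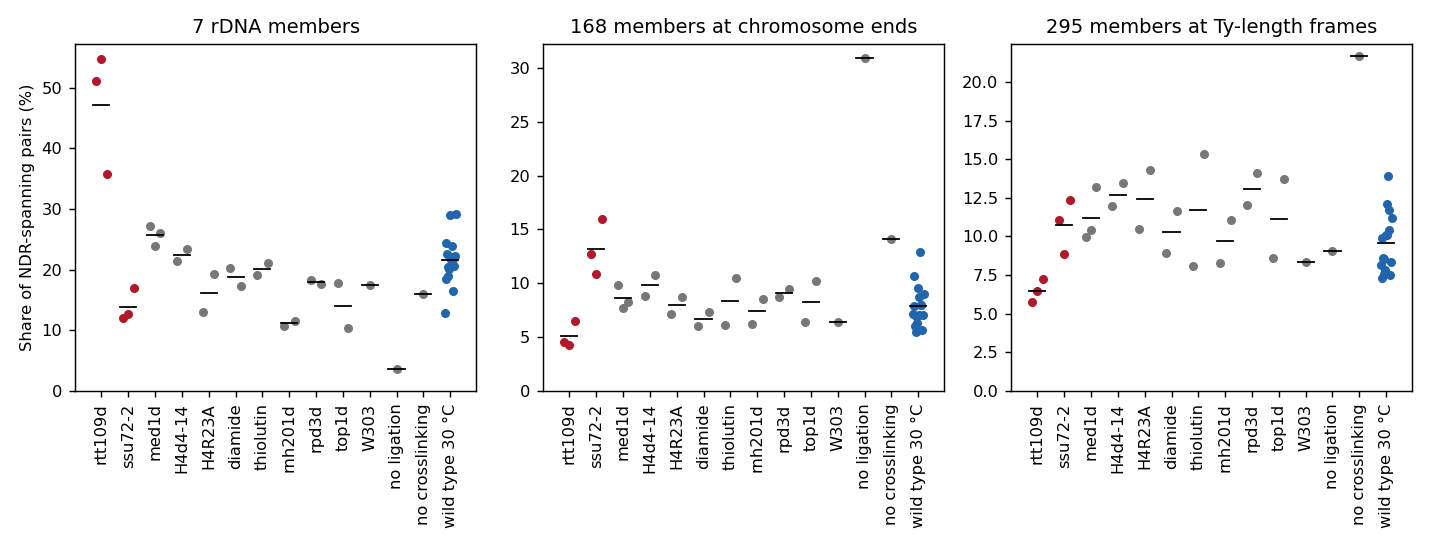
Share of all NDR-spanning pairs, in percent, on the members of the rDNA, of chromosome ends and of Ty-length frames. Each point is a replicate, and W303, no ligation and no crosslinking had 1 each. Bars are group means, red marks rtt109d and ssu72-2, and blue marks wild type. In rtt109d 35.8 to 54.7% of pairs lay on the rDNA, and in ssu72-2 10.8 to 16.0% lay on members at chromosome ends.

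To test changes with libraries that had not chosen the members, each altered group was compared with the mean of the other 9, in 1 edgeR quasi-likelihood fit over all 6719 NDRs without any wild-type column, with Benjamini-Hochberg adjustment over all NDRs at 0.05. Fold changes are relative to the typical NDR of a library. The comparisons share samples, since each group is part of the mean that the others are set against.

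Deletion of RTT109, the acetyltransferase of lysine 56 on histone H3 that acts on new histones in DNA replication and affects repeat stability, went with the largest fold changes called among members. On the 7 rDNA members lay 35.8, 51.1 and 54.7% of all NDR-spanning pairs in rtt109d, against 10.3 to 27.1% in the other 20 replicates. These ranges did not overlap. Within libraries that share a set number in their column names, rtt109d had 51.1% in set 15, against 23.9% in med1d, and 54.7% in set 22, against 11.9 to 26.1% in ssu72-2, the library labelled rpd3d, diamide and med1d. The labels do not say what a set is.

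In the fit, 21 members rose in rtt109d and 1 fell. Over all NDRs 0.446% rose and 0.193% fell. The NDR at 457821 had 75576, 161405 and 204030 CPM in rtt109d, against 13855 to 51851 CPM in the other 20 replicates with a median of 29062. All 3 lay above all 20, a log2 fold change of 2.38 ± 0.31 (SE, adjusted p = 1.29e-06). TAR1 had 88236, 162086 and 196820 CPM in rtt109d, against 13267 to 68346 CPM, a log2 fold change of 2.30 ± 0.31 (adjusted p = 1.59e-06). The NDR at 463647 had 96801, 181320 and 224127 CPM in rtt109d, against 15558 to 76584 CPM, a log2 fold change of 2.30 ± 0.32 (adjusted p = 1.59e-06). Groups did not overlap at any of these 3, nor at 460158 and 466959. The rDNA members lie in copies of the same repeated unit, whose reads may not be told apart. They are therefore not independent results. The other called rDNA member, at 451306, rose by 1.41 on the log2 scale with overlap, and YLR154C-H, at 1.20, missed the threshold (adjusted p = 0.0747). With limma-voom 10 members rose and 5 fell. With limma-voom and the set number as a block 11 rose and 8 fell, of which 12 were among the 22. Over all NDRs these fits called 33 and 40.

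Beside the rDNA 12 of 24 members rose in rtt109d, on both sides of the array. YLR162W on the telomeric side had 3917, 6028 and 9887 CPM in rtt109d, against 1146 to 4664 CPM with a median of 2254, a log2 fold change of 1.50 ± 0.29 (adjusted p = 0.00169). The lowest rtt109d replicate lay inside the range of the others. ASP3-4 and ASP3-3 rose by 1.29 and 1.18 on the log2 scale, ACS2 on the centromeric side by 1.11, and MAS1 and PUS5, which encode a mitochondrial protease subunit and a mitochondrial pseudouridine synthase, by 1.03 and 1.04. These 6, and YLL067C below, were chosen after their values were seen.

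The other 3 rises were at the left end of chromosome XII, 2 inside YLL067C, a subtelomeric helicase-like frame, and 1 at YLL066W-B. The NDR inside YLL067C at position 1873 had 195, 339 and 596 CPM in rtt109d, against 54.8 to 390 CPM with a median of 129, a log2 fold change of 1.50 ± 0.24 (adjusted p = 2.31e-05). The only fall was at chromosome I position 202656, with 29.8, 61.9 and 115 CPM in rtt109d, against a lowest value of 90.4 CPM and a median of 159 in the others, a log2 fold change of -1.23 ± 0.25 (adjusted p = 0.00318). Groups overlapped at both. Without replicate 3, 7 members were called in rtt109d, 5 in the rDNA and none beside it, without replicate 2, 9, and without replicate 1, 33. Over all NDRs these fits called 14, 15 and 64. With the NDR sum as library size and no TMM factor, 12 members rose and 603 fell, where 5419 of all 6719 NDRs were called. With the total line of the table as library size, a setting chosen after seeing the data, none was called.

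In ssu72-2, an allele of the gene for a phosphatase of the RNA polymerase II tail that acts in transcript termination and gene looping, 61 members rose and 5 fell. Over all NDRs 2.53% rose and 0.521% fell. The rises lay on chromosome I and at the ends of other chromosomes. All ssu72-2 replicates were kept at 32 °C and the 9 other groups at 30 °C, so allele and temperature differ together in this comparison. Chromosome I stood out also at NDRs that are no members. Over its 57 other NDRs away from repeats and ends, the level relative to the other chromosomes was 2.66, 2.23 and 2.24 times its median over altered replicates in ssu72-2, against 0.85 to 1.19 in the other 20 altered replicates and 0.87 to 1.26 in wild type. Chromosomes II to XVI in ssu72-2 lay between 0.92 and 1.07.

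On chromosome I 24 of 30 members rose in ssu72-2, with a median log2 fold change of 1.00, and all 70 other NDRs of the chromosome rose, with a median of 1.24. More copies of chromosome I and more contacts across its NDRs cannot be told apart in these counts. The member with the largest rise was the NDR at position 202656, with 307, 369 and 373 CPM in ssu72-2, against a median of 146 and a lowest value of 29.8 CPM in the other 20 replicates, a log2 fold change of 1.34 ± 0.18 (adjusted p = 5.38e-08). FLO1, a flocculin gene for cell-cell adhesion, had 365, 474 and 516 CPM in ssu72-2, against a median of 193 CPM, a log2 fold change of 1.27 ± 0.20 (adjusted p = 2.37e-06). CYS3, which encodes cystathionine gamma-lyase of cysteine synthesis, had 260, 334 and 385 CPM, against a median of 147 CPM, a log2 fold change of 1.26 ± 0.17 (adjusted p = 2.74e-08). The groups did not overlap at these 3.

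Off chromosome I, 37 of 642 members rose in ssu72-2 and 5 fell, and all 37 lay within 30 kb of a chromosome end, 33 of them within 10 kb. Members at these ends had a median log2 fold change of 0.73 over 160, of which 144 were positive, and the other NDRs at these ends 0.09 over 320. Of those 320, 20 were called higher, and 261 lay 10 to 30 kb from an end, against 45 of the 160 members. Within 10 kb 33 of 115 members were called higher (28.7%), at a median of 0.75. Of the other NDRs there 9 of 59 were (15.3%), at a median of 0.30. Of 28 chromosome ends with members, chromosome I included, 16 had a called rise and 24 a positive median. The share of pairs on all members at ends was 16.0, 10.8 and 12.7% in ssu72-2, against 4.24 to 10.8% in the other 20 replicates. The lowest ssu72-2 replicate lay just above the highest of the others. The 1 column of wild type at 32 °C, which entered no fit, had 5.94%.

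Genes of the YRF1 family in Y′ elements were among these rises. YRF1-5 at the right end of chromosome XII had 806, 897 and 1561 CPM in ssu72-2, against a median of 468.8 CPM in the others, a log2 fold change of 1.21 ± 0.25 (adjusted p = 6.32e-04). The NDR at chromosome XII position 1071681 had 1409, 1593 and 2695 CPM, against a median of 846 CPM, a log2 fold change of 1.19 ± 0.26 (adjusted p = 0.00155), with no overlap between groups. YPL277C on chromosome XVI had 304, 309 and 317 CPM, against a median of 148 CPM, a log2 fold change of 1.04 ± 0.18 (adjusted p = 1.29e-05), also with no overlap. These 3 were chosen after their values were seen. YRF1 copies are near-identical, so the counts of single copies are uncertain.

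The calls at ends depended more on single replicates than those on chromosome I. Without replicate 1, 17 members were called in ssu72-2, without replicate 3, 31, and without replicate 2, 66. Over all NDRs these fits called 113, 155 and 198. Of the 37 rises at other ends, 2 were kept without replicate 1, 7 without replicate 3 and 29 without replicate 2. Of the 24 rises on chromosome I, 15, 20 and 23 were kept in the same order. With the total line as library size no member was called in ssu72-2. With limma-voom 18 rose and 7 fell, with 15 of the rises on chromosome I and 3 of those at other ends kept. Over all NDRs limma-voom called 132.

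The 5 falls in ssu72-2 were 3 NDRs near the left end of chromosome III and 2 inside URA2, which encodes the first enzyme of pyrimidine synthesis. The NDR at chromosome III position 4725 had 98.7, 107 and 173 CPM, against a median of 247 CPM, a log2 fold change of -0.95 ± 0.25 (adjusted p = 0.0126). The NDR inside URA2 at position 168931 had 63.5, 66.7 and 98.7 CPM in ssu72-2, against a median of 140 CPM, a log2 fold change of -0.89 ± 0.20 (adjusted p = 0.00165). The other NDR of URA2, at 169273, changed by -0.88 ± 0.19 (adjusted p = 9.97e-04). The groups overlapped at all 5. The left end of chromosome III, whose members had a median log2 fold change of -0.69, went against most other ends.

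**Figure D5:**
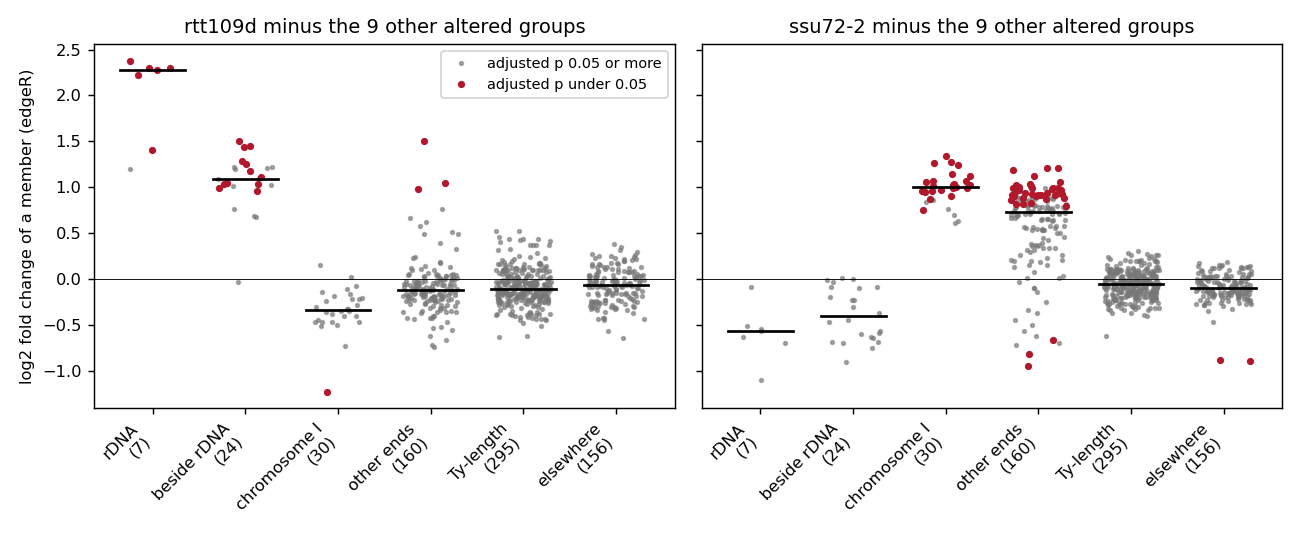
Log2 fold change of each member in rtt109d (left) and ssu72-2 (right) relative to the mean of the 9 other altered groups, by place, with the number of members in parentheses. Red points passed an adjusted p of 0.05, grey points did not, and bars are medians. In rtt109d the rDNA median was 2.28, and in ssu72-2 the members of chromosome I stood at a median of 1.00 and those at other ends at 0.73.

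Few members changed in the other altered groups. After diamide, a thiol oxidant, none rose and 2 fell, where 1.62% of all NDRs rose and 0.685% fell. GID7, a subunit gene of the ubiquitin ligase that degrades gluconeogenic enzymes, had 51.4 and 59.9 CPM after diamide, against 95.2 to 261 CPM in the other 21 replicates, a log2 fold change of -1.39 ± 0.24 (adjusted p = 1.81e-04). DSK2, a ubiquitin shuttle gene, had 89.2 and 89.4 CPM after diamide, against 122 to 235 CPM, a log2 fold change of -0.82 ± 0.22 (adjusted p = 0.0267). The groups did not overlap at either. Without replicate 1 no member was called, without replicate 2 1 was, and with the total line as library size none was. The 672 members had a median log2 fold change of -0.26 after diamide, against 0.00 over all NDRs.

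In H4d4-14, a mutant of histone H4, 1 member rose and none fell, where 0.0298% of all NDRs rose and 0.00% fell. It was the NDR at chromosome XIII position 194810, 1818 bp from a Ty-length frame, with 367 and 589 CPM in H4d4-14, against 139 to 302.9 CPM in the other 21 replicates, a log2 fold change of 1.26 ± 0.26 (adjusted p = 0.0309). The groups did not overlap. It was not called without replicate 2, by DESeq2, with the total line as library size or without ssu72-2 among the comparison groups.

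No member was called by edgeR in thiolutin, where 1.15% of all NDRs rose and 0.685% fell, nor in med1d (0% and 0%), H4R23A (0% and 0.0149%), rnh201d (0% and 0.0298%) or the libraries labelled rpd3d and top1d (0% and 0% in each). DESeq2 called 2 lower in rnh201d and none in the other 5. At an unadjusted p under 0.05 the numbers were 5 in thiolutin, 21 in med1d, 0 in H4R23A, 105 in rnh201d, 1 in the libraries labelled rpd3d and 11 in those labelled top1d. These numbers are out of the 672 members and were not counted over all NDRs. They do not show whether members differed from the other NDRs. In rnh201d, which lacks the catalytic subunit of RNase H2, the median log2 fold change was -0.50 over members and 0.04 over all NDRs, and -1.26 over the 7 rDNA members.

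At 37 °C the labels list 2 samples of each allele and 3 of wild type, but the table held 1 column for each, and whether a column is 1 sample or a pool is not stated. No test was possible, and all 4 alleles share the same wild-type column. Among members, 2-fold changes numbered 6 higher and 0 lower in sth1-2 (0.104% and 1.28% of all NDRs), 0 and 1 in rsc8-21 (0% and 0.417%), 1 and 0 in rgr1 (0.0149% and 0%), and 0 and 0 in scc2-4 (0.0149% and 0.223%). STH1 and RSC8 encode subunits of the RSC chromatin remodeller, RGR1 a Mediator subunit and SCC2 the cohesin loader. All 6 in sth1-2 lay at chromosome ends. YRF1-5 had 419 RPM in sth1-2 against 141 RPM in wild type at 37 °C, a log2 ratio of 1.57 (interval for counting error 1.36 to 1.78). YRF1-6 had 590 against 243 RPM, a log2 ratio of 1.28 (1.12 to 1.44).

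The ratios at 37 °C, and so the 2-fold counts, carry no scaling beyond RPM. Their median log2 value over all NDRs was -0.22 in sth1-2, -0.23 in rsc8-21, 0.11 in rgr1 and 0.00 in scc2-4. The lowest log2 ratios of members in sth1-2 were at YCR051W and at RSC6, another RSC subunit gene 925 bp away, both at -0.94. YCR051W had 113 RPM in sth1-2 against 218 RPM, and RSC6 had 104 against 200 RPM. In rsc8-21 the lowest were inside TRA1 (position 311241), with 65.7 RPM in rsc8-21 against 136 RPM, a log2 ratio of -1.05 (-1.42 to -0.68), and at SGD1, with 92.4 against 160 RPM, a log2 ratio of -0.79. The highest in rsc8-21 were both in the rDNA, TAR1 at a log2 ratio of 0.64 and 463647 at 0.62, and the rDNA median was 0.53 in rsc8-21 and 0.48 in sth1-2. In rgr1 the highest were both NDRs of YLL067C, at 1.08 and 0.76, and the lowest were ASP3-3 and TAR1, at -0.39 each. In scc2-4 the highest were again those of YLL067C, at 0.78 and 0.71, and the lowest were DEP1, at -0.61, and CYS3, at -0.58, which lie next to each other on chromosome I.

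MNase dose moved members and the other NDRs apart. With the 4 fractions summed, the median log2 ratio of 1X over 0.25X was 0.41 over members and -0.35 over all NDRs. It was 0.49 at chromosome ends, 0.50 at Ty-length frames and -0.14 elsewhere. Past 2-fold, 0 members were higher and 2 lower, where 0.135% of 6671 NDRs with at least 50 pairs were higher and 4.50% lower. The lower ones were the NDR at chromosome XIII position 910879, with 63.4 RPM at 1X against 149 RPM at 0.25X, and that inside TRA1 at 307188, with 65.2 against 139 RPM. The largest rises were inside YIL177C, a subtelomeric frame, with 322 RPM at 1X against 167 RPM at 0.25X at position 5363, and 308 against 160 RPM at 3902. At 1.5-fold 160 members were higher and 26 lower, where 223 of these 6671 NDRs were higher and 1856 lower. Each dose had 1 column per fraction, and both are BY4741 libraries of 1 set.

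W303, another laboratory strain, was set against wild type at 32 °C, whose column did not choose the members, although the temperature differs too. No member was over 2-fold higher in W303 and 7 were lower, where 0.268% of 6718 NDRs were higher and 0.595% lower. They lay in 3 places at chromosome ends. At 4 NDRs on chromosome XIV between 776898 and 779283, beside AIF1, a cell-death gene, W303 had 36.6 to 43.0 RPM against 137 to 170 RPM in wild type. At SNO4 and PAU19 on chromosome XIII W303 had 125 to 126 RPM against 262 to 302.7 RPM. At chromosome I position 202656 W303 had 60.8 RPM against 206 RPM. This member was also the one lower in rtt109d and that with the largest rise in ssu72-2. Whether W303 carries these stretches was not tested.

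Among the histone mutants with 1 replicate, no member passed 2-fold in H4K16Q against H4-WT (0.164% of 6709 NDRs higher, 0% lower). In H4Q93E against H4-WT 1 was higher (0.368% of 6517 higher, 0.414% lower), at chromosome V position 6314 with 337 against 164 RPM.

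Of all 3586 NDRs at a gene start, 206 were members (5.74%), and 6 of 10 functional gene lists had none. Of 101 NDRs at starts of ribosomal protein genes none was a member, and their median wild-type level was 40.5 RPM against 89.2 RPM over all NDRs. None were members among 23 NDRs of glycolysis, 17 of Yap1 and redox targets, 34 of the proteasome, 19 of mating and 11 of meiosis. Ribosome biogenesis had 3 of 47, at UTP20 (274.5 RPM), RRP9 (269.2 RPM) and ERB1 (235.7 RPM), each near a Ty-length frame. Histones had 1 of 9, shared by HHF1 and HHT1 (192.9 RPM) and also near such a frame, Hsf1 targets 1 of 13, at the small heat shock gene HSP42 (215.9 RPM), and the sulfur genes 1 of 19, at CYS3 (168.0 RPM).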

How the data were processed

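Per the labels' protocols, cells were fixed with 3% formaldehyde, and size-selected ligation products were enriched on streptavidin beads and sequenced as pairs. Per the submitters' processing notes, tools were CASAVA 1.8.2 and Bowtie2 with build sacCer3; filters, the counting of pairs and the assignment of reads from repeats are not given in the sources used here. The authors deposited raw whole-number counts of pairs per NDR, boundary positions with a strength score, and, per the file headers, pooled gene tables with a long- and a short-fragment signal and a normalised score on the log2 scale. Columns were matched to samples by name, 10 columns that matched none were not used, and repeat libraries of a replicate were summed, except in the member rule, which averages columns.

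The members and gene lists were chosen with earlier results of these data known. NDR counts were tested with edgeR 4.0.16 in R 4.3.3 (TMM, filterByExpr, glmQLFit and glmQLFTest, two-sided, all 6719 NDRs kept); DESeq2 1.42.0 and limma 3.58.1 were alternatives. The method was tested on simulated data. The labels name no separate cultures, so a p-value reflects only how much these libraries vary, possibly for technical reasons. Since replicate numbers are shared between groups, correlations of deviations from group means were checked. They ran from -0.46 to 0.46 for same-numbered replicates (median 0.02) and for different-numbered ones (median -0.01). In a group of 2 the deviations are opposite by design, so these ranges mirror each other and cannot decide whether numbers pair. Numbers were not used as pairs. Groups with 1 column or 1 replicate were compared as ratios of RPM, with exact intervals that cover counting error only. Gene names and places come from a RefSeq table of assembly R64, the assembly of sacCer3; a chromosome ends at its last listed gene or NDR. Named members are the 10 highest outside the rDNA, 3 on each side of the threshold, up to 3 called rises and falls a contrast, the 2 largest rises and falls in each 37 °C allele and in the MNase comparison, 3 examples a gene list and the 3 steadiest and 3 most variable; others are said to be chosen after their values were seen, which also holds for the long genes, W303, H4 and YRF1 members, and for ACS2 in wild type. Distances to centromeres and promoter sequences were not analysed here.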

Additional observations from a re-analysis of the deposited data

Results flagged for a closer look

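The share of pairs on the 7 rDNA members moved in opposite directions between MNase doses, depending on the size fraction of the digest. In the fraction labelled Small it was 33.9% at 1X and 48.1% at 0.25X, a difference of -14.2 percentage points, and in the Monomer fraction 23.7% and 30.5%, a difference of -6.76 points. In the Dimer fraction it was 22.4% at 1X and 18.9% at 0.25X, a difference of 3.47 points, and in the Tri-Tetra fraction 25.6% and 20.0%, a difference of 5.57 points. Each value is 1 column, so this difference between fractions was not tested.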

How the results depend on the processing

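Taking repeat libraries summed, the median over columns, wild type without replicate 17 or the ranking without rDNA kept 652 to 665 members, and the highest 5% kept 336. With the NDR sum as library size the members called numbered 1 in diamide, 615 in rtt109d, 132 in ssu72-2 and 2 in H4d4-14. Over all 6719 NDRs the numbers called were 87, 5419, 245 and 3 in the same order. With the total line of the table as library size, members called numbered 0 in diamide, rtt109d, ssu72-2 and H4d4-14 and 111 in rnh201d. In rnh201d 4101 of all 6719 NDRs were called. This setting was chosen after seeing the data, like limma-voom and the settings on ssu72-2 and chromosome I. With it 2 directions turned, DSK2 in diamide (0.38) and chromosome XIII 194810 in H4d4-14 (-0.32). The cause was not tested. DESeq2 called 0 members in H4d4-14 and 2 in rnh201d, where 0 and 4 of all NDRs were called. limma-voom with the set number as a random block called 9 members in diamide, 4 in thiolutin, 25 in ssu72-2 and 2 in H4d4-14. Without a block it called 4, 1, 25 and 2. Over all NDRs the numbers were 144, 90, 134 and 3 with the block and 91, 84, 132 and 3 without it. Without ssu72-2 among the comparison groups H4d4-14 had 0, and without chromosome I ssu72-2 had 42. With a replicate block, where numbers are not known to pair the samples, the counts were 1 in thiolutin, 13 in rtt109d and 2 in H4d4-14. Over all NDRs they were 120, 27 and 3. Leaving out a replicate gave 7 to 33 in rtt109d, 17 to 66 in ssu72-2, 0 to 1 in diamide, 0 to 4 in thiolutin and 0 to 1 in H4d4-14, where the lone replicate left in a group of 2 is assumed to vary like the other groups. The other 74 counts under these alternatives, fits with a replicate left out not among them, stayed within 1.5 times. Most of these were 0 in both fits. At 1.5-fold in place of 2-fold the members past it numbered 2 in rgr1, 16 in rsc8-21, 3 in scc2-4, 49 in sth1-2 and 186 for MNase dose. Over all NDRs 167 were higher and 21 lower in rgr1, 13 and 587 in rsc8-21, and 119 and 205 in scc2-4. In sth1-2 they numbered 56 and 933, and for MNase dose 223 and 1856. Within 500 bp of a joint-list boundary lay 174 members and within 100 bp 83. Library sizes from the distance tables were not run, since their columns carry no replicate number. The smallest libraries held 84223 pairs.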
